A study of Mus musculus with 14 samples.

Results

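The genes described here are 10 genes of antigen presentation by major histocompatibility complex (MHC) molecules, chosen by name: H2-K1, H2-D1, B2m, Tap1, Tap2 and Tapbp of class I, and H2-Aa, H2-Ab1, H2-Eb1 and Cd74 of class II. All 10 were found among the 24421 genes of the count table, and all 10 passed the filter on low counts, which left 14897 genes for testing. The data are RNA-seq libraries of the hippocampus of 7 WT mice and 7 mice labelled LPAR2-/-, with 1 library per mouse. LPAR2 is a receptor for lysophosphatidic acid at glutamatergic synapses, and the comparison asked how the hippocampal transcriptome differed without it.

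The mice of both genotypes were naive males of the strain given as 129.C57Bl6. Their age is not clear: the labels give 10 to 12 weeks, whereas the title of the series calls the mice aged. The study describes the knockout as a deletion of the later part of exon 2 of Lpar2, and homozygous knockouts and controls came from separate breeding lines (the latter a mix of C57BL/6 and 129/SvJ). Genotype and breeding line, and with the line any inherited difference at other loci, therefore cannot be told apart. The tissue is named as hippocampus in the labels, and the dentate gyrus is also named in the study. Marker genes of hippocampal neurons (Prox1, C1ql2, Wfs1, Fibcd1, Spink8, Neurod6 and Rbfox3) were all detected, with a summed level from 714 to 829 CPM, the count relative to the TMM-scaled total of the library, in WT mice and from 734 to 845 CPM in mice labelled LPAR2-/-. Single markers had log2 fold changes from -0.98 to 0.18, and 0 of the 7 had an unadjusted p under 0.05 (edgeR).

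Lpar2 itself went against the labels. Its level was from 1.51 to 3.23 CPM (median 2.73) in WT mice and from 8.20 to 12.3 CPM (median 9.47) in mice labelled LPAR2-/-, so that every mouse labelled as knockout lay above every WT mouse (log2 fold change 2.01 ± 0.16 SE, edgeR quasi-likelihood test with Benjamini-Hochberg adjustment, adjusted p = 8.22e-07). Counts were made per gene, and 84.4% of the counted length of Lpar2 is exon 3, outside the deleted part, so the total does not check the deletion. The genotypes are therefore given as labelled. From 15434620 to 23258949 reads per library were counted on genes. The library of LPAR2-/- mouse 2 stood apart in Ttr, the transthyretin made by the choroid plexus, with 242 CPM against 0.945 to 18.4 CPM in the other mice. LPAR2-/- mice 4 and 7 stood apart from the other mice of their label in low-count class I and class II genes such as H2-Q10, which are described with those genes.

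MHC class I molecules are carried by nearly all nucleated cells and show peptides of the cell's own proteins to CD8 T cells. The heavy chains (in mice H2-K1 and H2-D1) pair with beta-2-microglobulin (B2m), and peptides reach them through the TAP transporter (Tap1 and Tap2), to which tapasin (Tapbp) tethers the empty chains. MHC class II molecules are made by professional antigen-presenting cells and show peptides of ingested proteins to CD4 T cells. They consist of an alpha and a beta chain (H2-Aa with H2-Ab1, and an E alpha chain with H2-Eb1), and the invariant chain Cd74 guides them to the endosome. In the healthy brain parenchyma class II is scarce, and macrophages of the meninges, the perivascular spaces and the choroid plexus are its best known carriers.

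Promoters of 7 of the 10 genes were taken from RefSeq (build GRCm38.p6) as the 250 bases before the gene start in RefSeq. For H2-K1 and H2-Aa this start lies 14 and 52 bases upstream of the gene start in the count table, and for the other 5 the starts are the same. H2-Ab1, Tap2 and Cd74 had no entry. The promoters of the 2 class I heavy chains, of B2m and of 2 class II chains are shown because class I and class II genes are known for shared promoter elements. Each is printed 5′ to 3′ on the strand of its gene, with matches to the motifs below in capitals. H2-K1 covers chr17:34000348-34000597 on the minus strand, H2-D1 covers chr17:35262844-35263093 on the plus strand, B2m covers chr2:122147437-122147686 on the plus strand, H2-Aa covers chr17:34287824-34288073 on the minus strand and H2-Eb1 covers chr17:34305617-34305866 on the plus strand.
H2-K1: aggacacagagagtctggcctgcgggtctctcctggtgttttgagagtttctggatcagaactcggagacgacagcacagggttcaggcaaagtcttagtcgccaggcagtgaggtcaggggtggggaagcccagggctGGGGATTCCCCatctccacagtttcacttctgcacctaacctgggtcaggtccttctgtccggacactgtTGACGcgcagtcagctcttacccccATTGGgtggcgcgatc
H2-D1: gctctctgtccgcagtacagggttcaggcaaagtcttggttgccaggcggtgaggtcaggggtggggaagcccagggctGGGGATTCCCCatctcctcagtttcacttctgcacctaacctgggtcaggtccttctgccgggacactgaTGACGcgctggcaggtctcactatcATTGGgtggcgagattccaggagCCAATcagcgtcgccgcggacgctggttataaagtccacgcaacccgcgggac
B2m: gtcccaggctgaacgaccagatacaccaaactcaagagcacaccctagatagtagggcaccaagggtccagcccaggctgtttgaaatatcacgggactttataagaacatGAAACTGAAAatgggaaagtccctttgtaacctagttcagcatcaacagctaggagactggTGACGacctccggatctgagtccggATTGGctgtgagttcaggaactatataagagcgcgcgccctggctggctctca
H2-Aa: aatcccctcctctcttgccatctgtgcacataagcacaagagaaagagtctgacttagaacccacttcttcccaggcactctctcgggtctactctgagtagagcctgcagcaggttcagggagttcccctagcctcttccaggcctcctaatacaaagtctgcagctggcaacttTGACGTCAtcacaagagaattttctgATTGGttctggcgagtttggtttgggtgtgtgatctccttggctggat
H2-Eb1: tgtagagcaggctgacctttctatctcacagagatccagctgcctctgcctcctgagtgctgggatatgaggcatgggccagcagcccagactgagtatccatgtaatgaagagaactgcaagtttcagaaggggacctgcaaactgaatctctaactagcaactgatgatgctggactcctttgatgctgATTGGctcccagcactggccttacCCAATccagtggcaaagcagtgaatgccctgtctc

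The motifs were searched on both strands. CCAAT, the core of the element bound by NF-Y, was present in 7 of the 7 promoters and in 34.5% of 27025 mouse promoters of the same length. TGACG, the core of the cyclic AMP response element, was present in 5 of the 7 (H2-K1, H2-D1, B2m, Tap1 and H2-Aa) and in 17.9% of all promoters. In H2-Aa this motif matched on both strands at overlapping positions. GAAA followed after any 2 bases by another GAAA, the core of the interferon-stimulated response element, was present only in B2m among the 7, with its first base 139 bases before the start, and in 3.04% of all promoters. GGGGATT followed by CCCC, the NF-kB site of the class I enhancer A, was present in H2-K1 and H2-D1, 111 and 171 bases before the start, and in 6 of the 27025 promoters (0.0222%). These matches describe the sequence and were not tested against the counts.

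All 10 genes had a higher mean level in mice labelled LPAR2-/- than in WT mice, and 2 of them, the class II beta chain H2-Ab1 and the class I heavy chain H2-D1, passed the test (edgeR, adjusted p under 0.05 over all 14897 genes). Called or not, 7613 of the 14897 genes had a log2 fold change above 0. Over all genes tested, 6.77% passed, of which 494 genes (3.32%) were higher and 515 (3.46%) were lower in mice labelled LPAR2-/-. With upper-quartile scaling in place of TMM, these were 616 and 377 genes. At an unadjusted p under 0.05, 5 of the 10 genes and 22.4% of all genes passed. The median log2 fold change was 1.43 over the 4 class II genes, 0.25 over the 6 class I genes and 0.0029 over all genes. The filter on low counts can be met by the libraries of 1 genotype alone. In WT mice the lowest counts were 5 for H2-Ab1, 2 for H2-Aa, 6 for H2-Eb1 and 9 for Cd74. In mice labelled LPAR2-/- they were 17, 19, 8 and 19. In none of the 10 genes were all mice labelled LPAR2-/- above all WT mice, which held for 0.866% of all genes. In bulk tissue, fewer or more cells of a type and less or more RNA per cell cannot be told apart.

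**Figure D1:**
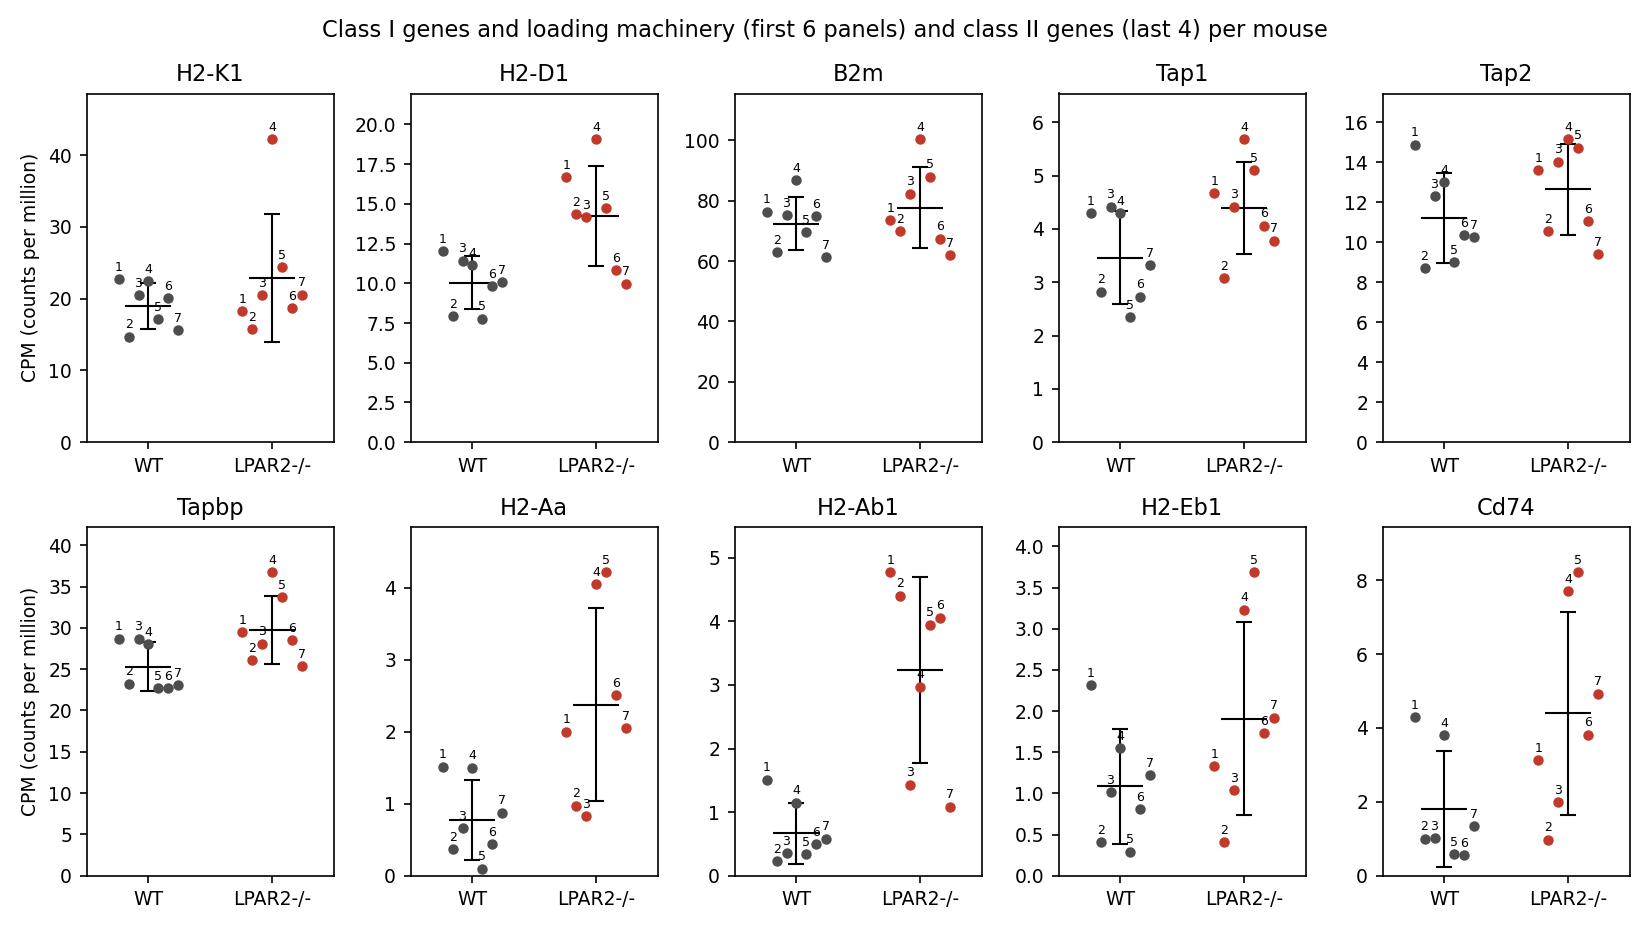
Level of the 10 genes in CPM (vertical axis, from 0) in WT mice (grey) and mice labelled LPAR2-/- (red), 1 point per mouse with its number, and mean ± SD (n = 7). For H2-Ab1, 5 of the 7 mice labelled LPAR2-/- lie above the highest WT mouse, and for H2-K1 LPAR2-/- mouse 4 lies alone at 42.3 CPM.

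H2-Ab1 encodes the beta chain of the class II molecule I-A (chr17:34263227-34269418, plus strand, mm10). It had 93, 86, 33, 69, 75, 68 and 17 counts in LPAR2-/- mice 1 to 7, and 32, 5, 7, 23, 7, 8 and 10 counts in WT mice 1 to 7. LPAR2-/- mice 1, 2, 4, 5 and 6 lay above every WT mouse, and LPAR2-/- mice 3 and 7 lay within the WT range. The mean was 3.24 ± 1.46 CPM (SD, n = 7) in mice labelled LPAR2-/- and 0.667 ± 0.480 CPM (n = 7) in WT mice. H2-Ab1 rose by 2.26 ± 0.42 (SE) on the log2 scale, a fitted fold of 4.79 (edgeR, adjusted p = 0.00558), and an exact two-sided permutation test of its log2 CPM over all 3432 arrangements of 7 against 7 mice gave p = 0.00291. It remained past the threshold without any single mouse (log2 fold change 2.10 to 2.62, adjusted p up to 0.0159).

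H2-Aa encodes the alpha chain that pairs with H2-Ab1 (chr17:34282751-34287771, minus strand). It had 39, 19, 19, 94, 80, 42 and 32 counts in LPAR2-/- mice 1 to 7 and 32, 8, 13, 30, 2, 7 and 15 counts in WT mice 1 to 7. In CPM, LPAR2-/- mice 1, 4, 5, 6 and 7 lay above every WT mouse, and LPAR2-/- mice 2 and 3 lay within the WT range. The level was 2.37 ± 1.34 CPM against 0.778 ± 0.553 CPM (SD, n = 7 each). The log2 fold change was 1.596 ± 0.472 and missed the threshold (edgeR, adjusted p = 0.0567, and exact permutation p = 0.0105). It passed with DESeq2 (adjusted p = 0.0114) and without LPAR2-/- mouse 2, LPAR2-/- mouse 3 or WT mouse 1 (adjusted p from 0.0305 to 0.0461).

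H2-Eb1 encodes the beta chain of the class II molecule I-E (chr17:34305867-34316674, plus strand). It had 26, 8, 24, 75, 70, 29 and 30 counts in LPAR2-/- mice 1 to 7 and 49, 9, 20, 31, 6, 13 and 21 counts in WT mice 1 to 7. The groups overlapped, with LPAR2-/- mice 4 and 5 above the WT range. Its log2 fold change was 0.81 ± 0.46 (edgeR, adjusted p = 0.326).

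Cd74, the invariant chain, is encoded on another chromosome (chr18:60803849-60812652, plus strand). It had 61, 19, 46, 179, 156, 64 and 77 counts in LPAR2-/- mice 1 to 7 and 91, 22, 20, 76, 12, 9 and 23 counts in WT mice 1 to 7. In CPM, LPAR2-/- mice 4, 5 and 7 lay above every WT mouse, and LPAR2-/- mouse 2 lay below the WT median. The level was 4.39 ± 2.75 CPM against 1.80 ± 1.57 CPM (SD, n = 7 each), and the log2 fold change of 1.27 ± 0.54 did not pass (edgeR, adjusted p = 0.178, exact permutation p = 0.0437). Summed over the 4 class II genes, the level was from 1.32 to 9.64 CPM (median 3.05) in WT mice and from 5.28 to 20.1 CPM (median 11.2) in mice labelled LPAR2-/-.

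H2-Ab1 and Cd74 did not rank the mice labelled LPAR2-/- alike (Pearson's r of log2 CPM -0.0771, against 0.861 within WT mice). LPAR2-/- mouse 2 had 4.53 counts of H2-Ab1 per count of Cd74 and LPAR2-/- mouse 1 had 1.52, whereas LPAR2-/- mouse 7 had 0.221 and LPAR2-/- mouse 4 had 0.385. In WT mice this ratio was from 0.227 to 0.889 (median 0.352). The ratio of H2-Ab1 to Cd74 differed by 0.973 on the log2 scale between the group means, a difference that was not detected (exact two-sided permutation test, p = 0.126). The ratio of H2-Aa to Cd74 was from 0.413 to 1.00 in mice labelled LPAR2-/-, with an SD of 0.445 on the log2 scale against 1.44 for the ratio of H2-Ab1 to Cd74. In WT mice it was from 0.167 to 0.778, the lowest of which came from 2 counts of H2-Aa, with an SD of 0.760 against 0.649.

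**Figure D2:**
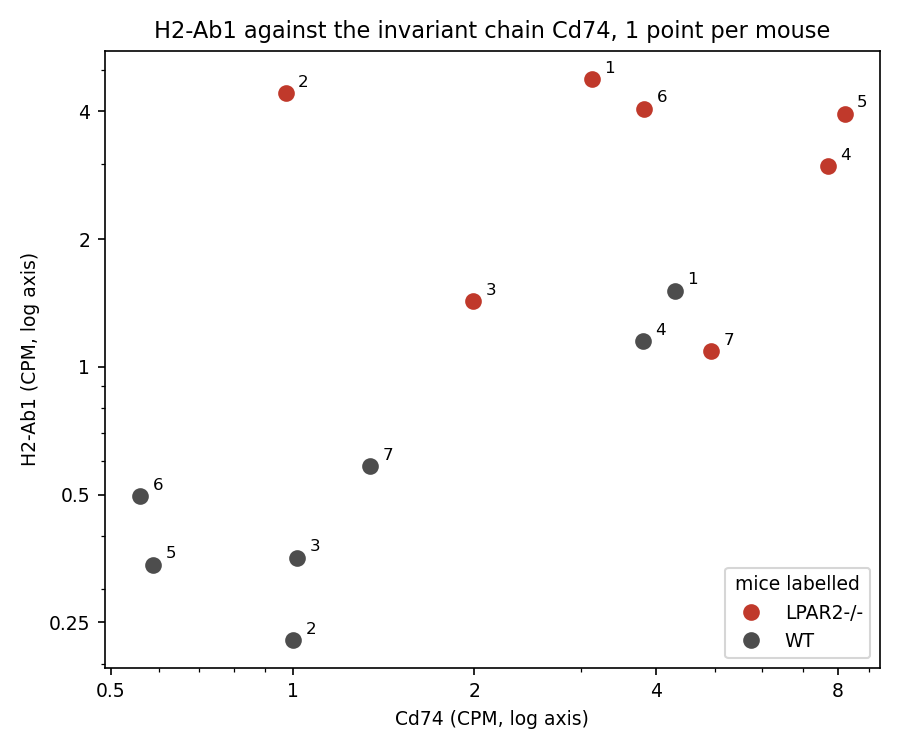
H2-Ab1 (vertical axis) against Cd74 (horizontal axis), both in CPM on log axes, 1 numbered point per mouse, WT in grey and mice labelled LPAR2-/- in red. LPAR2-/- mouse 2 has 4.53 counts of H2-Ab1 per count of Cd74, and LPAR2-/- mouse 7 has 0.221 and lies beside WT mice 1 and 4.

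Among the class I heavy chains, H2-D1 (chr17:35263094-35267497, plus strand) had 325, 280, 327, 443, 280, 181 and 156 counts in LPAR2-/- mice 1 to 7 and 254, 174, 225, 223, 159, 158 and 173 counts in WT mice 1 to 7. Scaled to CPM, LPAR2-/- mice 1 to 5 lay above every WT mouse, and LPAR2-/- mice 6 and 7 lay within the WT range. The level was 14.3 ± 3.15 CPM against 10.0 ± 1.67 CPM (SD, n = 7 each). H2-D1 rose by 0.51 ± 0.14 (SE) on the log2 scale (edgeR, adjusted p = 0.0375, exact permutation p = 0.0105). The call was lost, with a log2 fold change from 0.43 to 0.54 and an adjusted p from 0.0526 to 0.0840, without LPAR2-/- mouse 1, 2, 4 or 5 or without WT mouse 2, 4, 5, 6 or 7. On the authors' normalized values limma gave an adjusted p of 0.0751. Of the counted length of H2-D1, 61.1% overlaps the annotated gene H2-L on the same strand, and reads there were assigned to neither, so that its counts come from the other 676 bases.

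H2-K1 (chr17:33996012-34000333, minus strand) had 356, 308, 473, 981, 464, 313 and 321 counts in LPAR2-/- mice 1 to 7 and 480, 323, 403, 449, 350, 324 and 268 counts in WT mice 1 to 7. LPAR2-/- mouse 4 stood alone at 42.3 CPM, and the other mice lay between 14.7 and 24.4 CPM. The log2 fold change was 0.27 ± 0.20 (edgeR, adjusted p = 0.437) and 0.05 without LPAR2-/- mouse 4. H2-K1 and H2-D1 share stretches with each other and with other class I genes: 8.79% of the 50-base windows of the longest H2-K1 transcript and 14.3% of those of H2-D1 occur in another gene, and reads mapped to more than 1 place were left out of the counts. How many reads this removed was not tested.

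Of the light chain and the loading machinery, none passed the test. B2m (chr2:122147687-122153082, plus strand) ranged from 61.4 to 86.9 CPM (median 74.9) in WT mice and from 61.9 to 100.5 CPM (median 73.7) in mice labelled LPAR2-/-, with a log2 fold change of 0.10 ± 0.10 (adjusted p = 0.604). Tap1 (chr17:34187556-34197225, plus strand) ranged from 2.35 to 4.42 CPM (median 3.32) in WT mice and from 3.07 to 5.69 CPM (median 4.42) in mice labelled LPAR2-/-, with a log2 fold change of 0.35 ± 0.16 (adjusted p = 0.224). Its partner in the transporter, Tap2 (chr17:34204479-34216321, plus strand), ranged from 8.69 to 14.9 CPM (median 10.4) and from 9.41 to 15.2 CPM (median 13.6), with a log2 fold change of 0.18 ± 0.13 (adjusted p = 0.463). Tapbp (chr17:33919478-33929290, plus strand) ranged from 22.7 to 28.7 CPM (median 23.3) and from 25.3 to 36.7 CPM (median 28.5), with a log2 fold change of 0.23 ± 0.09 (adjusted p = 0.131, exact permutation p = 0.0355). All 7 mice labelled LPAR2-/- lay above the WT median of Tapbp, and the groups overlapped in each of these 4 genes. LPAR2-/- mouse 4 was the highest of all 14 mice in H2-K1, H2-D1, B2m, Tap1, Tap2 and Tapbp.

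Per length of counted exon, B2m was by far the most abundant of the 10 in WT mice, with 84.0 ± 10.3 RPKM (counts per kilobase of counted exon, relative to the unscaled library total, SD, n = 7). It was followed by H2-K1 with 11.5 ± 1.95 RPKM, Tapbp with 9.15 ± 1.09 RPKM, H2-D1 with 5.74 ± 0.949 RPKM and Tap2 with 4.48 ± 0.901 RPKM, and each of these lay above the next in all 7 WT mice. Over its 676 unshared bases alone, the mean level of H2-D1 was 14.7 RPKM in WT mice and 21.2 RPKM in mice labelled LPAR2-/-, so its place in the order depends on the length used. Cd74 (1.27 ± 1.10 RPKM), Tap1 (1.17 ± 0.295 RPKM), H2-Aa (0.723 ± 0.515 RPKM), H2-Eb1 (0.647 ± 0.413 RPKM) and H2-Ab1 (0.555 ± 0.399 RPKM) came last in WT mice, and the ranges of neighbours in this order overlapped. In mice labelled LPAR2-/-, the order from B2m to Cd74 was the same, and H2-Ab1 came next with 2.73 ± 1.224 RPKM, ahead of H2-Aa with 2.24 ± 1.29 RPKM, Tap1 with 1.501 ± 0.309 RPKM and H2-Eb1 with 1.16 ± 0.723 RPKM. The ranges of all neighbours but B2m and H2-K1 overlapped there.

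From mouse to mouse within a genotype, the class I genes varied together. Pearson's r of log2 CPM was computed over 14 mice after subtraction of the genotype means for all 45 pairs of the 10 genes, and 29 pairs had a Benjamini-Hochberg adjusted p under 0.05 (permutation of mice within genotype, 100000 resamples). Among them were 14 of the 15 pairs of class I genes (median r 0.80), 3 of the 6 pairs of class II genes (median r 0.73) and 12 of the 24 pairs of a class I with a class II gene (median r 0.58). The lowest r among the 29 was 0.582, which 66.7% of the 45 pairs and 5.43% of all pairs of the 14897 genes reached, and the median r was 0.683 over the 45 pairs and -0.0015 over all pairs. Tap1 and Tapbp had r = 0.899 (permutation adjusted p = 0.000562, rho = 0.890) and r = 0.929 without the 2 mice farthest from the median of Tap1. H2-Aa and H2-Eb1 had r = 0.921 (permutation adjusted p = 0.000562, rho = 0.943), with r = 0.899 within mice labelled LPAR2-/-, 0.956 within WT mice and 0.946 without the 2 mice farthest from the median of H2-Aa. H2-Eb1 and Cd74 had r = 0.904 (permutation adjusted p = 0.000562, rho = 0.903), with 0.993 within mice labelled LPAR2-/- and 0.816 within WT mice.

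H2-Ab1 had lower values of r over the 14 mice. Its r was 0.569 with its partner chain H2-Aa (permutation adjusted p = 0.0618, rho = 0.582), 0.409 with Cd74 (adjusted p = 0.184) and 0.386 with H2-Eb1 (adjusted p = 0.208). Within the WT mice alone, r of H2-Ab1 with the other 9 genes was from 0.598 to 0.871 (0.804 with H2-Aa, 0.861 with Cd74 and 0.871 with H2-Eb1). Values of r within a genotype were not tested. Within mice labelled LPAR2-/- its r was from -0.111 to 0.438 (0.278 with H2-Aa, -0.0771 with Cd74 and -0.0794 with H2-Eb1). The difference between the genotypes was not tested. Values per mouse share their library and its depth, and at fewer than 10 counts in some mice the class II genes carry counting error.

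Outside the 10 genes, the genes with the most similar pattern were sought over the same 14 mice after subtraction of the genotype means, among 13992 genes outside the lists with at least 1 CPM on average. For H2-K1 these were Lrp5 (r = 0.899), Apoe (0.875), Ccnd3 (0.870), Esrra (0.860) and Zbtb7c (0.852). For Cd74 they were Ctsh (r = 0.933), Lyz2 (0.905), Ifitm2 (0.892), Cp (0.890) and Rassf3 (0.889). These correlations are a description, chosen as the highest of many.

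Of 22 other class I heavy chain genes in the table, 8 passed the filter, 7 of them had a higher mean level in mice labelled LPAR2-/-, and 2 passed the test. Both rose, which is 25% of the 8, against 3.32% of all genes tested. H2-T23, the nonclassical molecule Qa-1, was at 2.44 to 3.90 CPM (median 3.10) in WT mice and at 3.48 to 6.89 CPM (median 4.87) in mice labelled LPAR2-/- and rose by 0.60 ± 0.16 on the log2 scale (edgeR, adjusted p = 0.0369). This call was lost without LPAR2-/- mouse 1, 4, 5 or 6 or without WT mouse 2, 3, 5 or 7 (adjusted p from 0.0551 to 0.0802), and with limma on the authors' normalized values (adjusted p = 0.0635, and 0.05 with a pseudocount of 1). H2-M5 was at 1.55 to 2.33 CPM (median 1.84) in WT mice and at 2.16 to 3.94 CPM (median 3.25) in mice labelled LPAR2-/- and rose by 0.67 ± 0.16 (adjusted p = 0.0188). The median log2 fold change of the 8 genes was 0.56. Class I genes of the Q and T regions share long stretches with each other, so that reads counted on each may be incomplete, and H2-L, H2-Q6, H2-Q7 and H2-T9, which overlap another annotated gene along 99.0% or more of their counted length, had 0 counts in every mouse.

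Several class I and class II genes that failed the filter had counts in some mice labelled LPAR2-/- and hardly any in WT mice. They were named after their values had been seen. H2-Q10, a class I heavy chain known as a serum protein made by the liver, had 36, 33, 31, 1, 20, 13 and 0 counts in LPAR2-/- mice 1 to 7 and 0 counts in all 7 WT mice. Against a floor of 3 counts over the WT group, its pooled level was at least 44.6-fold higher in mice labelled LPAR2-/-. H2-Q2 had 31, 18, 25, 8, 21, 15 and 0 counts in LPAR2-/- mice 1 to 7 and 4 counts in all in WT mice, a ratio of 29.5 (95% interval 11.2 to 109.9 for counting error only).

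H2-Ea-ps, the E alpha chain row, had 24, 9, 3, 0, 26, 12 and 0 counts in LPAR2-/- mice 1 to 7, 2 counts in WT mouse 7 and 0 counts in the other WT mice. Its ratio was 36.9 (95% interval 9.88 to 310.8 for counting error only). As background, strains of the b haplotype such as C57BL/6 do not transcribe the E alpha gene, and the reference lists it as a pseudogene. H2-Q1 had 20, 5, 4, 41, 47, 19 and 4 counts in LPAR2-/- mice 1 to 7 and 5, 0, 0, 22, 0, 0 and 0 counts in WT mice 1 to 7. LPAR2-/- mice 4 and 7 had no more than 1 count of H2-Q10 and 0 counts of H2-Ea-ps, and mouse 7 also lacked H2-Q2. Without the filter on low counts, 2 of the 12 listed class I and II genes that had failed it and had any counts passed the test, H2-Q2 (adjusted p = 0.00128) and H2-Ea-ps (adjusted p = 0.0335), and H2-Q10 had an adjusted p of 0.0555. In that fit 858 of 20115 genes passed (4.27%).

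H2-DMb1, a chain of the class II peptide editor, was highest in the 2 mice labelled LPAR2-/- with the fewest counts of H2-Q10. It had 2, 4, 8, 34, 15, 8 and 24 counts in LPAR2-/- mice 1 to 7 and 23, 16, 19, 17, 16, 12 and 9 counts in WT mice 1 to 7, so that LPAR2-/- mice 4 and 7 were the highest and mice 1, 2, 3 and 6 lay below the lowest WT level of 0.525 CPM. Its log2 fold change was -0.23 ± 0.42 (adjusted p = 0.801). LPAR2-/- mice 4 and 7 also had the lowest counts of H2-Ab1 per count of Cd74 of their label, 0.385 and 0.221 (WT 0.227 to 0.889). In the other mice of the label, all with more counts of H2-Q10, it was 1.52, 4.53, 0.717, 0.481 and 1.06 (mice 1, 2, 3, 5 and 6). Whether the mice differ in their inherited MHC region was not tested, since the counts hold no sequence variants. The part of such a difference in the counts of H2-Ab1 and the other genes was likewise not tested.

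**Figure D3:**
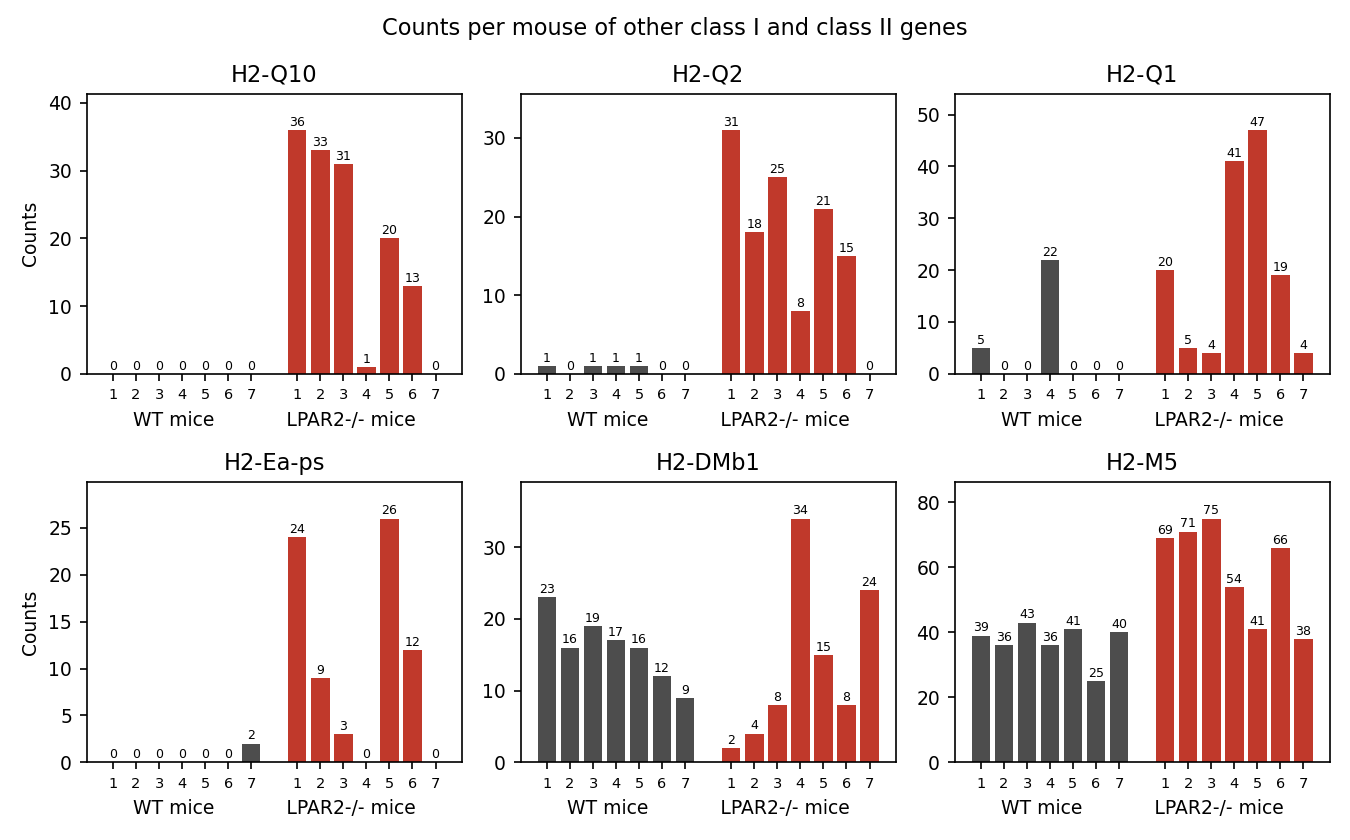
Counts (vertical axis, from 0) of 6 other class I and class II genes in WT mice 1 to 7 (grey) and LPAR2-/- mice 1 to 7 (red), 1 bar per mouse. H2-Q10 has 0 counts in all WT mice and 0 and 1 counts in LPAR2-/- mice 7 and 4, the mice in which H2-DMb1 is highest with 24 and 34 counts.

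The class II list of chains, editors and proteases held 12 genes of the table, of which 7 were tested and 2 rose (28.6% of the 7, against 3.32% of all genes). H2-DMa, the other chain of the peptide editor, was at 11.8 to 16.7 CPM (median 14.96) in WT mice and at 16.5 to 20.1 CPM (median 18.5) in mice labelled LPAR2-/- and rose by 0.32 ± 0.07 (edgeR, adjusted p = 0.0144). Ifi30, a thiol reductase of the endosome, was at 2.96 to 5.15 CPM (median 3.47) in WT mice and at 5.63 to 7.49 CPM (median 6.71) in mice labelled LPAR2-/-, without overlap, and rose by 0.85 ± 0.12 (adjusted p = 5.00e-04). All mice labelled LPAR2-/- lay above all WT mice in 0.866% of all genes tested. Ifi30 lies on chromosome 8 (chr8:70762773-70766663) close to Lpar2 (chr8:69822565-69831102). The cathepsins Ctss and Ctsl had log2 fold changes of 0.11 ± 0.14 (adjusted p = 0.694) and 0.04 ± 0.04 (adjusted p = 0.608).

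Among 10 genes of class I peptide supply and loading, all tested, 3 fell (30%, against 3.46% of all genes) and none rose. They were the chaperones of the endoplasmic reticulum Calr (fell by 0.44 ± 0.10 on the log2 scale, adjusted p = 0.0183), Canx (fell by 0.22 ± 0.05, adjusted p = 0.0132) and Pdia3 (fell by 0.34 ± 0.08, adjusted p = 0.0207), which serve many other glycoproteins. The interferon-induced subunits of the immunoproteasome, Psmb8 and Psmb9, had log2 fold changes of 0.32 ± 0.19 (adjusted p = 0.345) and 0.38 ± 0.22 (adjusted p = 0.317). The 10 genes had a median log2 fold change of 0.12.

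Of 13 transcriptional regulators, all tested, 1 fell (7.69%) and none rose, near the 6.77% of all genes that passed in either direction. Rfxank, a subunit of the RFX complex that binds class I and class II promoters, was at 31.4 to 33.9 CPM (median 33.0) in WT mice and at 24.7 to 27.8 CPM (median 27.1) in mice labelled LPAR2-/-, without overlap, and fell by 0.29 ± 0.04 (edgeR, adjusted p = 3.61e-04). The groups did not overlap, in either direction, in 264 of the 14897 genes tested. Rfxank also lies close to Lpar2 on chromosome 8 (chr8:70130806-70139197). Nfyb and Rfx5, subunits of the NF-Y and RFX complexes named for the highest CPM of the list, had log2 fold changes of 0.11 ± 0.08 (adjusted p = 0.430) and 0.12 ± 0.04 (adjusted p = 0.0946). Nfya, another subunit of NF-Y, was at 25.4 to 46.3 CPM (median 44.5) in WT mice and at 23.8 to 37.4 CPM (median 27.9) in mice labelled LPAR2-/-, and its log2 fold change of -0.49 ± 0.14, the largest in size of the 13, missed the threshold (adjusted p = 0.0504). Ciita, the master coactivator of class II, ranged from 1.83 to 2.20 CPM in WT mice and from 1.38 to 2.42 CPM in mice labelled LPAR2-/- (log2 fold change -0.16 ± 0.13, adjusted p = 0.507), and Nlrc5, that of class I, had 0.08 ± 0.22 (adjusted p = 0.876). Nfya, Ciita and Nlrc5 were named after their values had been seen.

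Of 7 genes of interferon signalling (Ifng, its receptor chains Ifngr1 and Ifngr2, the kinases Jak1 and Jak2, and the type I receptor chains Ifnar1 and Ifnar2), 6 were tested with edgeR and 0 passed, with 1 at an unadjusted p under 0.05. Their log2 fold changes were between -0.13 and 0.05. Jak1 had -0.03 ± 0.05 (adjusted p = 0.779) and Ifngr2 had 0.01 ± 0.05 (adjusted p = 0.946). Ifng itself had 0 counts in all mice, where a count of 0 allows up to 0.129 to 0.192 CPM per library. Over the 5 lists together, 4 of 44 genes tested rose (9.09%, against 3.32% of all genes) and 4 fell (9.09%, against 3.46%).

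**Figure D4:**
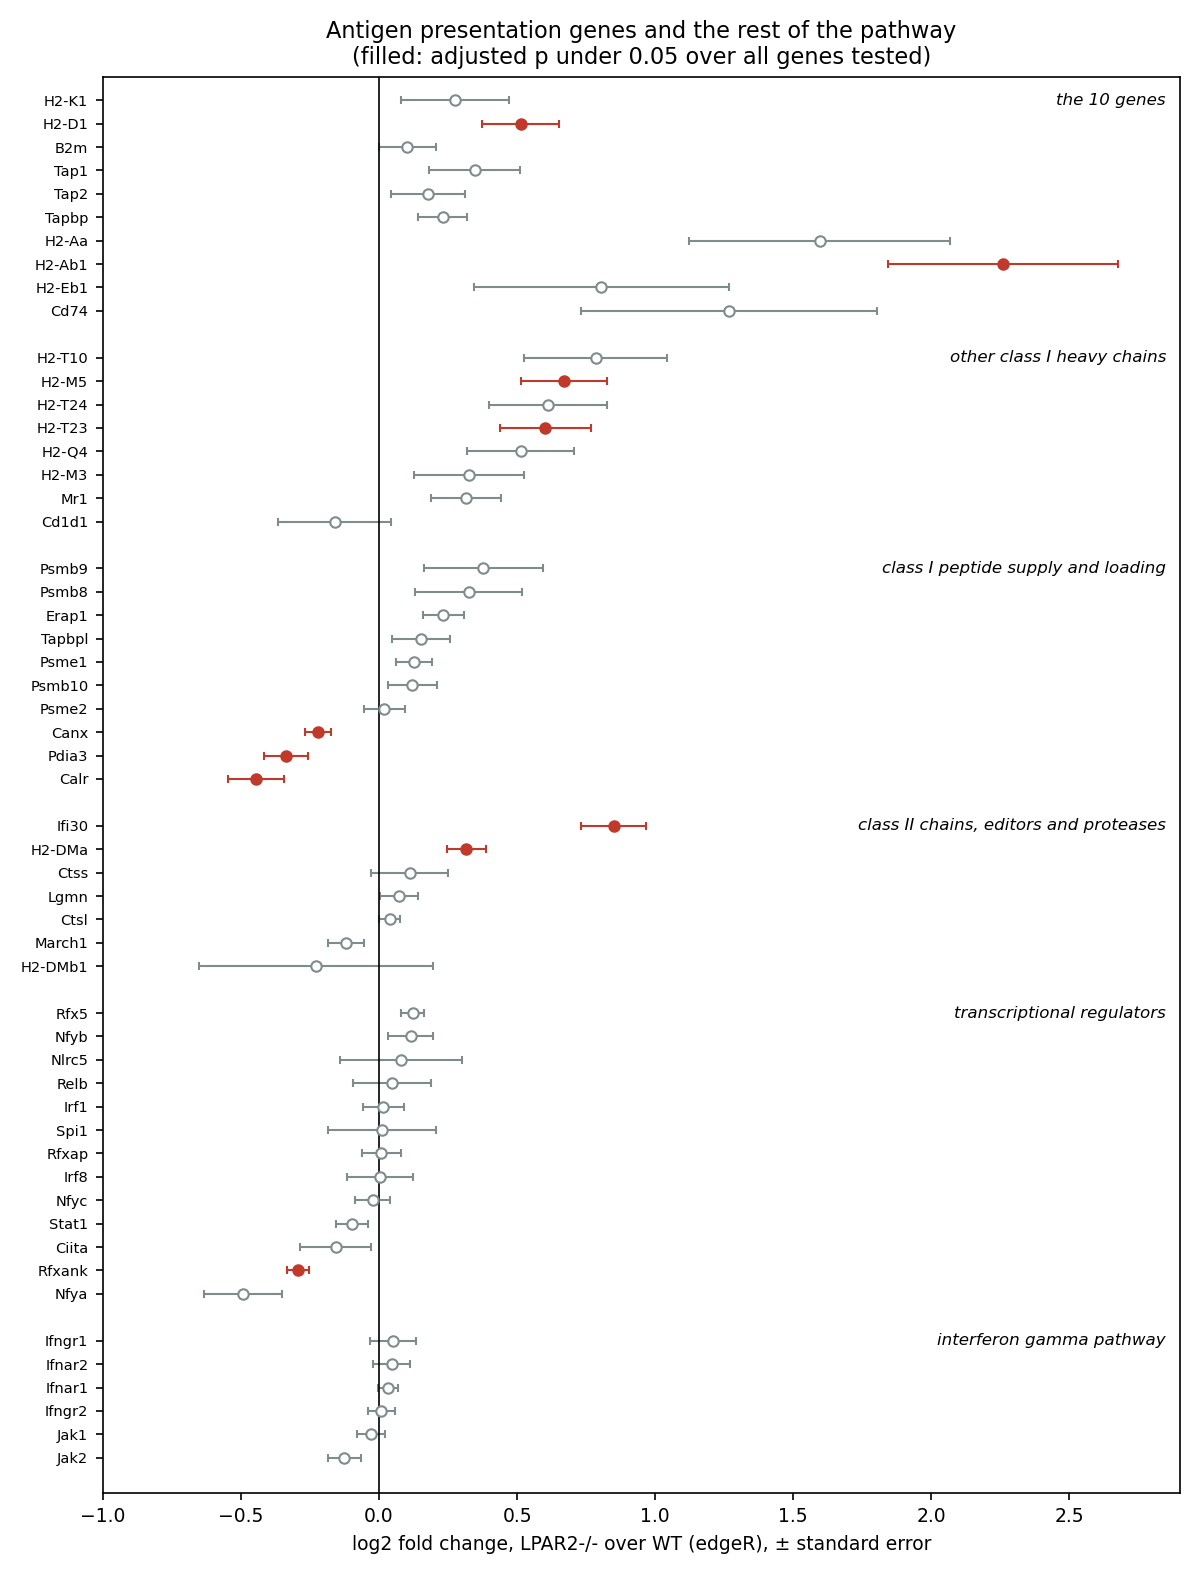
Log2 fold change of mice labelled LPAR2-/- over WT mice (horizontal axis, edgeR) ± SE for the 10 genes and for 44 further genes of the pathway that were tested, with filled red points for an adjusted p under 0.05. H2-Ab1 at 2.26 and H2-D1 at 0.51 are filled among the 10, and the filled points further down are 4 genes above 0 and 4 below.

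As 8 of the 10 genes lie on chromosome 17, their neighbours were counted. From 1 Mb before Tapbp to 1 Mb after H2-D1 (chr17:32919478-36267497, mm10), 126 genes were tested and 15 passed (11.9%, against 6.77% of all genes), 13 of them higher and 2 lower. With 2 Mb on either side, 18 of 153 passed (11.8%). Besides H2-Ab1, H2-D1, H2-DMa and H2-T23, these were the higher genes Cyp4f13, Zfp414, Wdr46, Vps52, H2-Ke6, Col11a2, Brd2, Msh5 and Lst1 and the lower genes Hnrnpm and Abcf1. Msh5, a mismatch repair protein of meiosis, rose by 1.34 ± 0.32 (edgeR, adjusted p = 0.0203), and Lst1, a transcript of leukocytes, rose by 0.72 ± 0.19 (adjusted p = 0.0280). The other 7 higher genes had log2 fold changes from 0.19 to 0.36. The count within 1 Mb was from 8 to 20 without single mice and fell by over 1.5 times, to 8 or 9, without WT mouse 2, WT mouse 5, LPAR2-/- mouse 1 or LPAR2-/- mouse 5. No test compared this share with that of other regions.

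**Figure D5:**
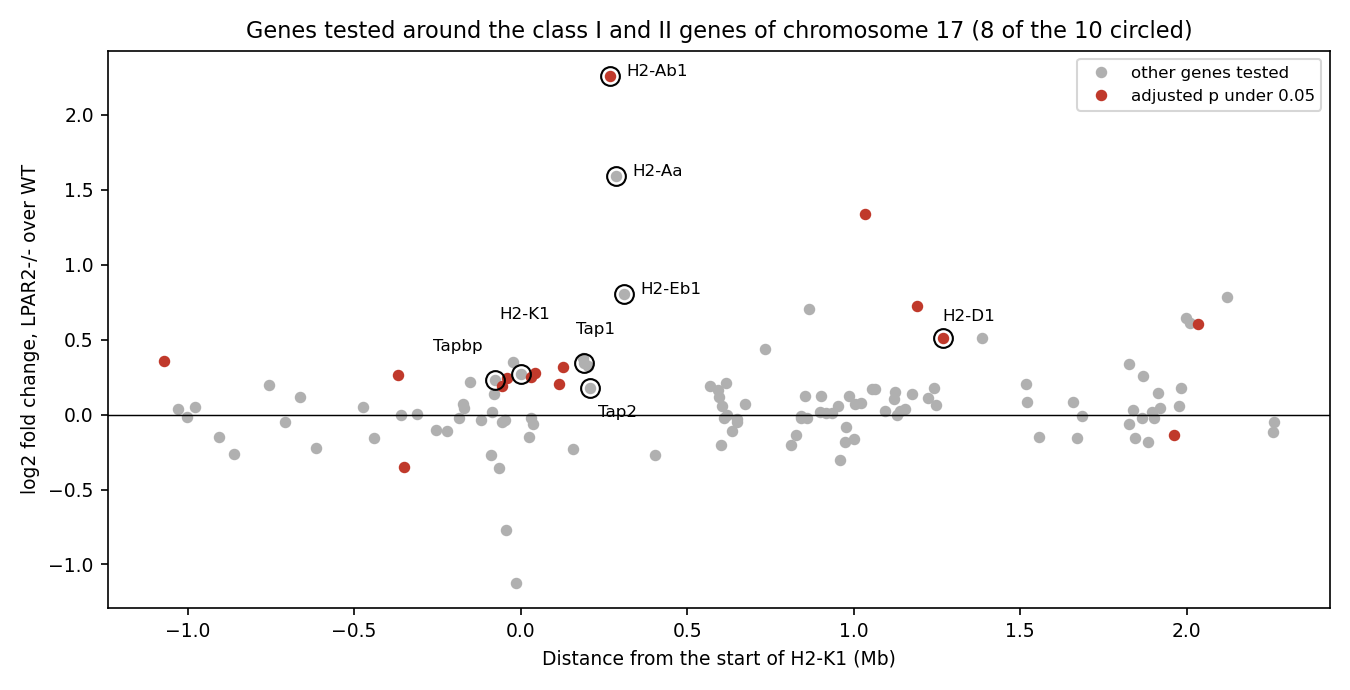
Log2 fold change of mice labelled LPAR2-/- over WT mice (vertical axis) of the 126 genes tested around the class I and II genes of chromosome 17, by distance from the start of H2-K1 in Mb (horizontal axis), with genes past the threshold in red and 8 of the 10 genes circled. H2-Ab1 at 2.26 is the highest point, and 13 of the 15 red points lie above 0.

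Markers of cells that carry class II were summed per mouse. The 7 markers of border macrophages (Mrc1, Cd163, Lyve1, F13a1, Pf4, Ms4a7 and Cbr2) summed to 4.06 to 17.6 CPM (median 8.50) in WT mice and to 9.32 to 28.6 CPM (median 13.6) in mice labelled LPAR2-/-, a ratio of the means of 1.69. Each of the 7 had counts, 6 were tested, 0 passed with edgeR (2 had an unadjusted p under 0.05), and all 6 were higher on average, with a median log2 fold change of 0.82. Mrc1, the mannose receptor, was at 1.17 to 5.45 CPM (median 2.42) and at 2.95 to 10.4 CPM (median 4.36), respectively (log2 fold change 0.93 ± 0.34, adjusted p = 0.123). LPAR2-/- mice 4 and 5 had the highest sums of border macrophage markers, 28.6 and 21.5 CPM, and were also the highest of all mice in Cd74, H2-Aa and H2-Eb1. H2-Ab1 was highest in LPAR2-/- mice 1 and 2 (4.77 and 4.41 CPM), whose sums of these markers were 13.6 and 9.32 CPM, the latter the lowest of the mice labelled LPAR2-/-. WT mouse 4, with the highest sum of the WT mice, lay below only WT mouse 1 among the WT mice in Cd74. The part of these cells in the class II result was not tested.

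The 6 meningeal markers had a ratio of the means of 1.69. With edgeR, 1 of 6 passed and rose (16.7%, against 3.32% of all genes). This was Lum, with a log2 fold change of 0.54 ± 0.12 (adjusted p = 0.0132). At an unadjusted p under 0.05 there were 4 of the 6, and 5 of the 6 were higher on average, with a median log2 fold change of 0.88. Their sums were from 33.0 to 135.8 CPM in WT mice and from 39.9 to 196.1 CPM in mice labelled LPAR2-/-, and their part in the results was likewise not tested. The 10 microglial markers, among them P2ry12 and Tmem119, had a ratio of 1.06 (404 to 522 CPM in WT mice and 410 to 493 CPM in mice labelled LPAR2-/-), and 0 of them passed with edgeR (2 had an unadjusted p under 0.05). Dendritic cell markers had a ratio of 0.873, with 3 of 7 tested and 0 past the test (2 at an unadjusted p under 0.05). Markers of B cells summed to at most 0.896 CPM and those of T cells to at most 0.775 CPM in any mouse, and none of them passed the filter. The choroid plexus list of 6 markers, all with counts, had a ratio of 2.34. Of its 4 genes tested with edgeR, 0 passed and 3 had an unadjusted p under 0.05, and all 4 were higher on average, with a median log2 fold change of 1.24. Without LPAR2-/- mouse 2 the log2 ratio of the sums was 0.248, and for the list without Kl, which neurons also express, it was 3.30 with and 0.979 without this mouse. The log2 fold change of H2-Ab1 without LPAR2-/- mouse 2 was 2.17, at an adjusted p of 0.0113 (edgeR). The part of choroid plexus tissue in the class II result was not tested.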

How the data were processed

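RNA of the hippocampus of 7 WT mice and 7 mice labelled LPAR2-/- was sequenced, and genotypes were taken from the labels. The authors used cutadapt 1.18 for trimming and STAR with the mm10 genome for alignment. They deposited raw counts per gene on exons (featureCounts 1.6.3, reverse strand), leaving out reads of ambiguous origin. The counts carry no normalization. The authors also deposited a score per gene (counts scaled with DESeq2 1.22.2 size factors and gene length, on a linear and a log2 scale), used as an alternative. Its linear values had lost their decimal points, which were restored from the log2 columns (100% within 2%).

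The tools were edgeR 4.0.16 for the main tests, with limma 3.58.1 and DESeq2 1.42.0 for alternatives, in R 4.3.3. Genes that passed filterByExpr (14897 of 24421) were scaled by TMM and compared by edgeR's robust quasi-likelihood test, without covariates, with Benjamini-Hochberg adjustment and a threshold of 0.05. log2 CPM used a prior count of 2. Totals of 15434620 to 23258949 counts per library set the precision, and 0 counts leave room for 3, for counting error only. Exact permutation tests used all 3432 arrangements (smallest p 0.000583). The labels do not say that mouse numbers pair mice of the groups. Same-numbered mice had correlations of -0.334 to 0.311, of which 3 of 7 were above 0.1. These were not compared with other pairs of mice, so a pairing was not tested. No library was a copy of another of its group (chi-square per degree of freedom of 3.41 or more in 42 pairs). Tests were tried on simulated data with 200 changed genes.

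The 10 genes, the lists and the tests were chosen with earlier results of these data known. Named are the 10 genes, Lpar2, genes of each list past the threshold (or the 2 of the highest CPM where fewer passed), called neighbours on chromosome 17 and the 5 most similar genes to H2-K1 and to Cd74. Others are said to be chosen after their values were seen. Alternatives were DESeq2, DESeq2 size factors, upper-quartile scaling, no filter, a minimum of 10 counts in each library, limma on the deposited score without and with a pseudocount of 1, a replicate block, each mouse left out, Spearman's rho, a prior count of 0.5, RPKM on TMM-scaled totals, and a 2 Mb margin.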

Additional observations from a re-analysis of the deposited data

Results flagged for a closer look

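Of 75 groups of 7 mice examined (a gene or a sum of markers in 1 genotype), 10 had a highest mouse whose gap to the next, divided by the range of the group, was above Dixon's critical value, which chance passes in about 1 in 20 groups. LPAR2-/- mouse 4 had 42.3 CPM of H2-K1, against 24.4 CPM in the next mouse labelled LPAR2-/-, and 61.3 CPM of H2-K1 and H2-D1 together. WT mouse 4 had 1.10 CPM of H2-Q1 against at most 0.236 CPM in the other WT mice. WT mouse 7 alone among the WT mice had counts of H2-Ea-ps, at 0.117 CPM. WT mouse 1 had 5.15 CPM of Ifi30, below the lowest mouse labelled LPAR2-/-, and a sum of 522 CPM of microglial markers. LPAR2-/- mouse 3 had 463 CPM of Calr and 435 CPM of Canx, the value nearest to WT among mice labelled LPAR2-/- for both. LPAR2-/- mouse 2 had a sum of 287 CPM of choroid plexus markers, and of 254 CPM without Kl, which neurons also express.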

How the results depend on the processing

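The direction of the 10 genes was the same under every alternative run, and H2-Ab1 was past the threshold in all of them that tested it (log2 fold change 1.20 to 2.62). The count of 2 among the 10 genes became 1 with at least 10 counts in every library, where 6 of the 10 were tested, and 1 with limma on the normalized values, both without a pseudocount and with a pseudocount of 1. H2-Aa was added with DESeq2. Leaving out single mice gave 1 to 3 of the 10 genes, 567 to 1385 of all genes (275 to 660 higher, 292 to 725 lower), 7 to 10 of the other pathway genes, 8 to 20 genes around the class I and II genes of chromosome 17 and 24 to 31 pairs. In a fit blocked on the mouse number (replicate block), 2 of the 10 genes passed, beside 586 of all genes (314 higher, 272 lower), 5 other pathway genes and 8 genes on chromosome 17. The labels do not say whether the mouse number pairs mice. H2-T23, H2-M5 and Pdia3 were not past the threshold in this blocked fit (edgeR, adjusted p = 0.0625, 0.0660 and 0.0589). The log2 fold change of Ifngr2, near 0, was from -0.01308 to 0.03975 without single mice, and below 0 without LPAR2-/- mouse 2 (-0.01308) or 6 (-0.001451) or WT mouse 4 (-0.008592) or 5 (-0.009635). The sum of choroid plexus markers without Kl had a log2 ratio of 3.30 with and 0.979 without LPAR2-/- mouse 2. The cause of these shifts was not tested. With 2 to 94 counts per mouse, H2-Aa, H2-Ab1 and H2-Eb1 are limited by depth. Reads that match several copies may be missing from the class I heavy chains, and their number was not tested.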
